A study of Mus musculus with 16 samples.

Results

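Ribosome biogenesis and nucleolar genes are here 39 listed genes whose products make, modify, cut and assemble ribosomal RNA. A gene was taken up where a probe set of the array named it alone, and where several did, the one with the highest mean was used. That gave 38 of the 39 genes, out of 19938 genes measured. The only probe set of Ppan names another gene as well, so Ppan was not tested.

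The series compares leukemias of B cell precursors in mice with and without an added loss of a Bank1 allele. Its 16 arrays hold 6 samples of leukemic cells in the total bone marrow of mice with the genotype Bank1+/- + Pax5+/- (Bank1/Pax5 leukemia), 6 of mice with the genotype Pax5+/- (Pax5 leukemia), and 4 of pro-B and pre-B cells from WT bone marrow. Both leukemia groups carry a heterozygous loss of Pax5, and the WT cells carry neither loss. The design text counts 3 WT mice where the labels give 4 WT arrays as separate replicates, and the WT arrays are labelled leukemic under cell type, against their titles, tissue and genotype. Ages and the way the WT precursors were isolated are not stated. The comparisons with WT set total leukemic marrow against a precursor fraction, and in such bulk RNA fewer cells of a type and less RNA per cell cannot be told apart.

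Ribosomes are built in the nucleolus. RNA polymerase I copies the ribosomal DNA, small nucleolar ribonucleoproteins (snoRNPs) guide chemical marks onto the transcript, the small subunit processome folds and cuts it, and further factors mature the small and the large subunit. Lymphocytes are known to switch these genes on as they grow and divide, and the transcription factor Myc is known to drive many of them.

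Promoter windows from 250 bases before to 50 bases after the transcription start were found in the RefSeq table (build GRCm38.p6) for 34 of the 39 genes, Ppan included, and for 27025 genes in all. The letters CACGTG, an E-box that Myc with Max and related factors can bind, were present in 7 of the 34 windows (20.6%), against 8.1% of all windows and 9.5% of the 15614 windows of genes measured here. CCGGAAG, a core that ETS family factors can bind, was found on either strand in 11 of the 34 windows (32.4%), against 9.9% of all windows and 13.6% of those of measured genes. TATAAA was found on either strand in 3 (8.8%), against 15.7% of all windows and 13.6% of those of measured genes. These are matches of letters only, and binding was not measured.

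The 7 genes with the E-box are Nop2, Utp20, Pes1, Mybbp1a, Tsr1, Nle1 and Wdr43. Nop2 held it before the transcription start, at position -60, and the other 6 within the first 50 transcribed bases. The 250 bases before the Nop2 start are shown because they hold the E-box and the ETS-type core close together without overlap, both in capitals. The windows of the other 6 genes show the E-box in capitals among flanking bases that differ from gene to gene. All are written in the direction of transcription.
Nop2 (chr6:125131633-125131882, plus strand): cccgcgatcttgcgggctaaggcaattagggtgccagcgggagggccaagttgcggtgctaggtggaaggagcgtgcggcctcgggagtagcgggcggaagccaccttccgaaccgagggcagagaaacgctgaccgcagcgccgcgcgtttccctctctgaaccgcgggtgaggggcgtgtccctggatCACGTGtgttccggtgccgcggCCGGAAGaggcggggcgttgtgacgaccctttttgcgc
Utp20 (chr10:88826765-88826787, minus strand): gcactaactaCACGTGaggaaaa
Mybbp1a (chr11:72441357-72441376, plus strand): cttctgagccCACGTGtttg
Tsr1 (chr11:74898094-74898119, plus strand): acttggtgcaCACGTGgactgcagaa
Nle1 (chr11:82908357-82908382, minus strand): ggttctcctcCACGTGgggacgcagg
Wdr43 (chr17:71616222-71616247, plus strand): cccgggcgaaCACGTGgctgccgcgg
Pes1 (chr11:3963967-3963992, plus strand): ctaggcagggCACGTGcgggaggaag

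The genes were chosen with earlier results of these data known, so the shares below describe the group and do not test it. All measured genes of the group stood higher on average in Pax5 leukemia than in WT, and 27 of the 38 rose by the test (71.1%, against 9.53% of all genes called higher). Fewer rose in Bank1/Pax5 leukemia relative to WT, 13 of 38 (34.2%, against 6.80% of all genes). Set against each other, the leukemias differed in 9 genes, which were lower in Bank1/Pax5 leukemia than in Pax5 leukemia (23.7%, against 5.00% of all genes called lower and 1.71% called higher). The fit behind these calls assumes 1 spread per gene for all groups. On simulated data with each group's own spread it made more false calls between the leukemias than its adjusted threshold allows, so these 9 calls are less secure than the threshold states. Calls were also more frequent among brighter genes. Removing genes whose highest group mean lay under 7.01, the median of named probe sets, left 10445 genes and 37 of the group. Of these 10445 genes, 1836 rose in Pax5 leukemia and 1369 in Bank1/Pax5 leukemia against WT, beside 27 and 16 of the 37. Between the leukemias 1061 were lower in Bank1/Pax5 leukemia, beside 14 of the 37. No gene of the group was called in the opposite direction in any of these comparisons with limma, nor had one an unadjusted p under 0.05 in that direction. Values are log2 probe set intensities, a difference of 1 is a doubling, and genes passed at a two-sided p under 0.05 after adjustment over all 19938 genes. Replicate arrays are labelled as biological replicates, and p-values measure the spread between them.

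The median difference over the 38 genes was 0.41 for Bank1/Pax5 leukemia minus WT (range -0.23 to 0.94), 0.75 for Pax5 leukemia minus WT (range 0.07 to 1.51), and -0.34 for Bank1/Pax5 minus Pax5 leukemia (range -1.04 to 0.10). Over all 19938 genes these medians were -0.03, -0.05 and 0.02. For 27 of the 38 genes the means stood in the order Pax5 leukemia, Bank1/Pax5 leukemia, WT. The comparisons share samples with each other, so the counts are not independent of one another. The plot of the genes by array shows them by role. For the counts by role that follow, the shares of all genes called higher than in WT were 9.53% in Pax5 leukemia and 6.80% in Bank1/Pax5 leukemia. Between the leukemias 5.00% of all genes were lower in Bank1/Pax5 leukemia.

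**Figure D1:**
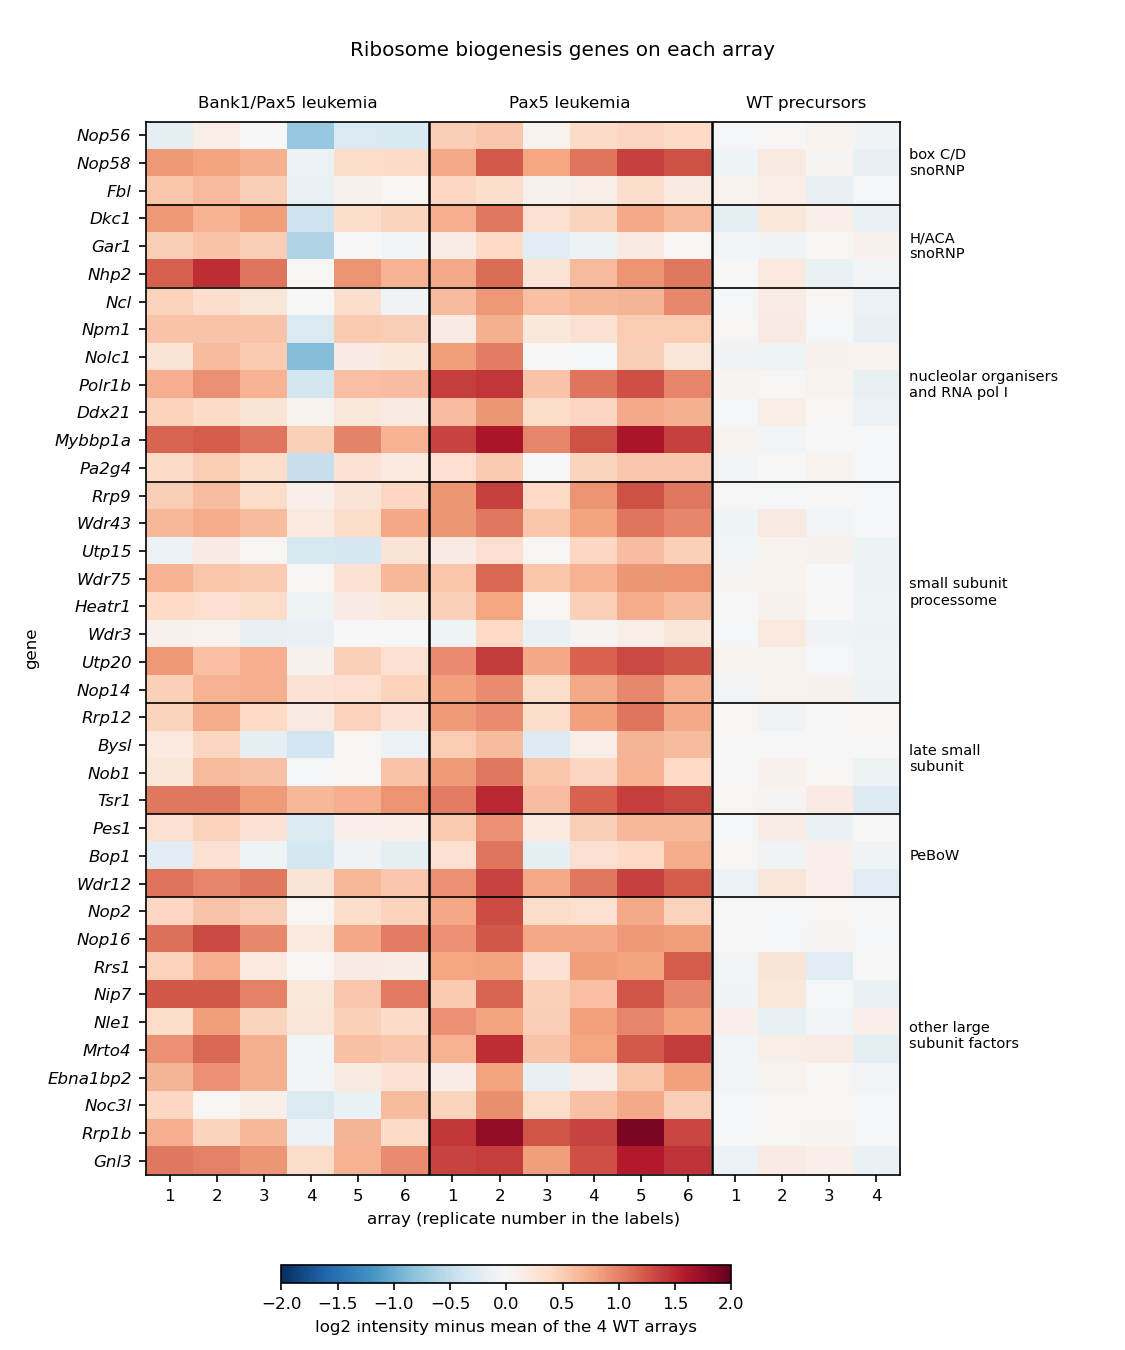
Heat map of the 38 measured ribosome biogenesis genes (rows, by role) on the 16 arrays (columns, by group and replicate number), with colour giving log2 intensity minus the mean of the 4 WT arrays. The Pax5 leukemia arrays are red for most genes, array 4 of Bank1/Pax5 leukemia is pale or blue for most, and Rrp1b reaches the deepest red on Pax5 arrays 2 and 5.

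**Figure D2:**
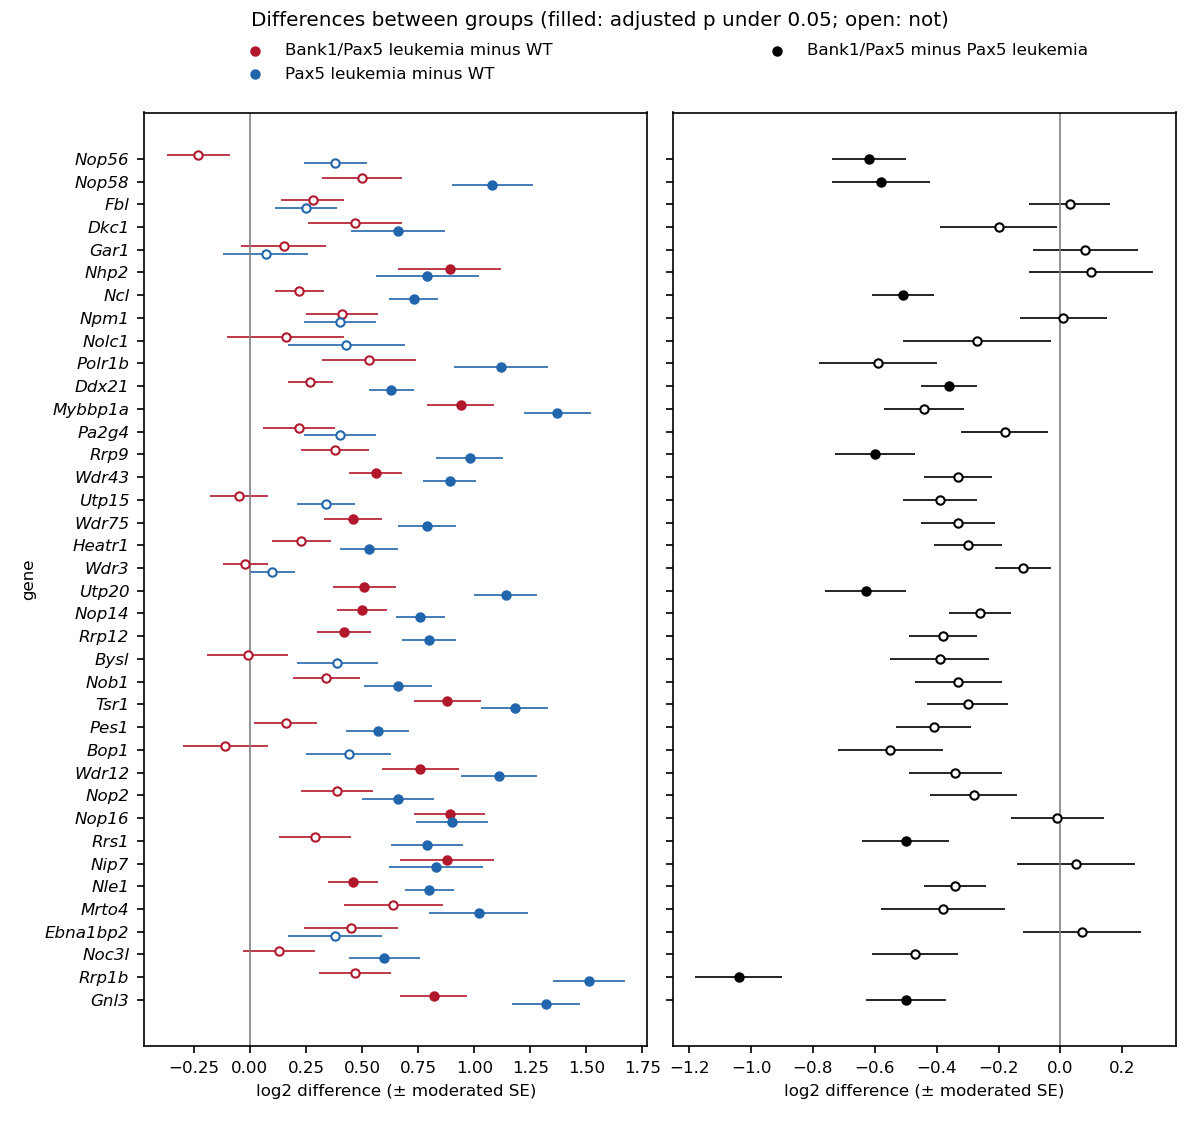
Log2 differences with moderated SE for each of the 38 genes (rows): Bank1/Pax5 leukemia minus WT in red and Pax5 leukemia minus WT in blue on the left, Bank1/Pax5 minus Pax5 leukemia in black on the right, with filled symbols at adjusted p under 0.05. All 38 blue symbols lie above zero, and the 9 filled black symbols all lie below it, with Rrp1b the lowest at -1.04.

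Among the core proteins of box C/D snoRNPs, which guide methylation of ribosomal RNA, 1 of 3 rose in Pax5 leukemia, none in Bank1/Pax5 leukemia with limma (1 at an unadjusted p under 0.05), and 2 were lower in Bank1/Pax5 leukemia than in Pax5 leukemia. Nop56, a scaffold protein of the particle, measured between 10.48 and 11.38 in Bank1/Pax5 leukemia (median 11.01) and between 11.31 and 11.78 in Pax5 leukemia (median 11.65), against 11.22, 11.27, 11.31 and 11.18 in WT. The Pax5 arrays lay at or above the highest WT array, and most Bank1/Pax5 arrays lay below the lowest WT array. Its mean in Bank1/Pax5 leukemia was 0.652 of that in Pax5 leukemia, a log2 difference of -0.62 (SE 0.12, adjusted p = 0.0104), while neither leukemia passed the test against WT (Bank1/Pax5 minus WT -0.23, adjusted p = 0.258, and Pax5 minus WT 0.38, adjusted p = 0.0573).

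Nop58, the partner of Nop56 in the same scaffold, measured between 9.06 and 10.03 in Bank1/Pax5 leukemia (median 9.72) and between 9.93 and 10.54 in Pax5 leukemia (median 10.31), against 9.08, 9.35, 9.23 and 9.02 in WT. All Pax5 arrays lay above WT, and Bank1/Pax5 arrays overlapped with both other groups. It was 2.11-fold higher in Pax5 leukemia than in WT (log2 difference 1.08, SE 0.18, adjusted p = 0.000561) and lower in Bank1/Pax5 leukemia than in Pax5 leukemia (-0.58, SE 0.16, adjusted p = 0.0406). Fbl, fibrillarin, the methyltransferase of the particle, measured between 9.99 and 10.78 in Bank1/Pax5 leukemia (median 10.41) and between 10.21 and 10.54 in Pax5 leukemia (median 10.39), against 10.20, 10.25, 9.97 and 10.08 in WT. The groups overlapped, and no comparison passed the test (Bank1/Pax5 minus WT 0.28, Pax5 minus WT 0.25, Bank1/Pax5 minus Pax5 0.03, SE 0.13 to 0.14). A second Fbl probe set, not used in the test, averaged 10.37 ± 0.22 in Bank1/Pax5 leukemia and 10.58 ± 0.09 in Pax5 leukemia, against 9.84 ± 0.08 in WT (SD). The probe sets disagree on the size of the difference to WT and on the direction between the leukemias. They were almost equally bright over all arrays (10.324 for the one used and 10.317). In 28 other settings at the same threshold, Fbl passed against WT in 3 for Pax5 leukemia and in 5 for Bank1/Pax5 leukemia.

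The H/ACA snoRNPs turn uridines of ribosomal RNA into pseudouridine and also belong to telomerase. Of their core proteins 2 of 3 rose in Pax5 leukemia and 1 in Bank1/Pax5 leukemia. Between the leukemias none was called with limma, and none had an unadjusted p under 0.05. Dkc1, dyskerin, the pseudouridine synthase, measured between 9.29 and 10.58 in Bank1/Pax5 leukemia (median 10.28) and between 10.03 and 10.77 in Pax5 leukemia (median 10.39), against 9.53, 9.92, 9.81 and 9.58 in WT. All Pax5 arrays lay above WT. The difference was 0.66 for Pax5 leukemia minus WT (SE 0.21, adjusted p = 0.0376) and 0.47 for Bank1/Pax5 leukemia minus WT (SE 0.21, adjusted p = 0.145). Nhp2 rose in both, by 0.89 for Bank1/Pax5 leukemia (SE 0.23, adjusted p = 0.0125) and by 0.79 for Pax5 leukemia (SE 0.23, adjusted p = 0.0212). Gar1 gave 0.15 for Bank1/Pax5 leukemia minus WT and 0.07 for Pax5 leukemia minus WT, with an SE of 0.19 in each.

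Of the 7 nucleolar organisers and RNA polymerase I factors, 4 rose in Pax5 leukemia, 1 rose in Bank1/Pax5 leukemia, and 2 were lower in Bank1/Pax5 leukemia than in Pax5 leukemia. Ncl, nucleolin, an abundant RNA-binding protein of the nucleolus, measured between 11.29 and 11.82 in Bank1/Pax5 leukemia (median 11.65) and between 11.96 and 12.33 in Pax5 leukemia (median 12.03), against 11.32, 11.51, 11.38 and 11.24 in WT. Every Pax5 array lay above every Bank1/Pax5 and every WT array, while Bank1/Pax5 and WT arrays overlapped. The difference was -0.51 for Bank1/Pax5 minus Pax5 leukemia (SE 0.10, adjusted p = 0.00729) and 0.73 for Pax5 leukemia minus WT (SE 0.11, adjusted p = 0.00024). Between Bank1/Pax5 leukemia and WT it was 0.22 (SE 0.11, adjusted p = 0.172).

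Npm1, nucleophosmin, a nucleolar chaperone of histones and ribosomal proteins, measured between 10.73 and 11.59 in Bank1/Pax5 leukemia (median 11.56) and between 11.17 and 11.72 in Pax5 leukemia (median 11.42), against 11.03, 11.18, 10.97 and 10.87 in WT. A single low array sets the lower end in Bank1/Pax5 leukemia. The difference to WT was 0.41 in Bank1/Pax5 leukemia (SE 0.16, adjusted p = 0.0858) and 0.40 in Pax5 leukemia (SE 0.16, adjusted p = 0.0825), and between the leukemias it was 0.01 (SE 0.14, adjusted p = 0.975).

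Polr1b, a core subunit of RNA polymerase I, measured between 8.47 and 9.76 in Bank1/Pax5 leukemia (median 9.49) and between 9.41 and 10.27 in Pax5 leukemia (median 10.02), against 8.89, 8.87, 8.92 and 8.69 in WT. It was 2.17-fold higher in Pax5 leukemia than in WT (log2 difference 1.12, SE 0.21, adjusted p = 0.00186). In Bank1/Pax5 leukemia 1 array lay below all WT arrays and the others above them, and the difference to WT was 0.53 (SE 0.21, adjusted p = 0.0997). Mybbp1a, a nucleolar protein first known as a partner of Myb, measured between 9.69 and 10.42 in Bank1/Pax5 leukemia (median 10.25) and between 10.19 and 10.85 in Pax5 leukemia (median 10.57), against 9.29, 9.15, 9.22 and 9.19 in WT. Both leukemias lay wholly above WT, by 0.94 for Bank1/Pax5 (1.91-fold, SE 0.15, adjusted p = 0.000434) and by 1.37 for Pax5 (2.59-fold, SE 0.15, adjusted p = 1.76e-05). Ddx21, an RNA helicase of the nucleolus, rose in Pax5 leukemia against WT (0.63, SE 0.10, adjusted p = 0.000385) and was lower in Bank1/Pax5 leukemia than in Pax5 leukemia (-0.36, SE 0.09, adjusted p = 0.026). Nolc1, a chaperone of snoRNPs, and Pa2g4, a growth-regulated nucleolar protein, passed the test in no comparison, with differences to WT of 0.16 and 0.22 in Bank1/Pax5 leukemia and of 0.43 and 0.40 in Pax5 leukemia.

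**Figure D3:**
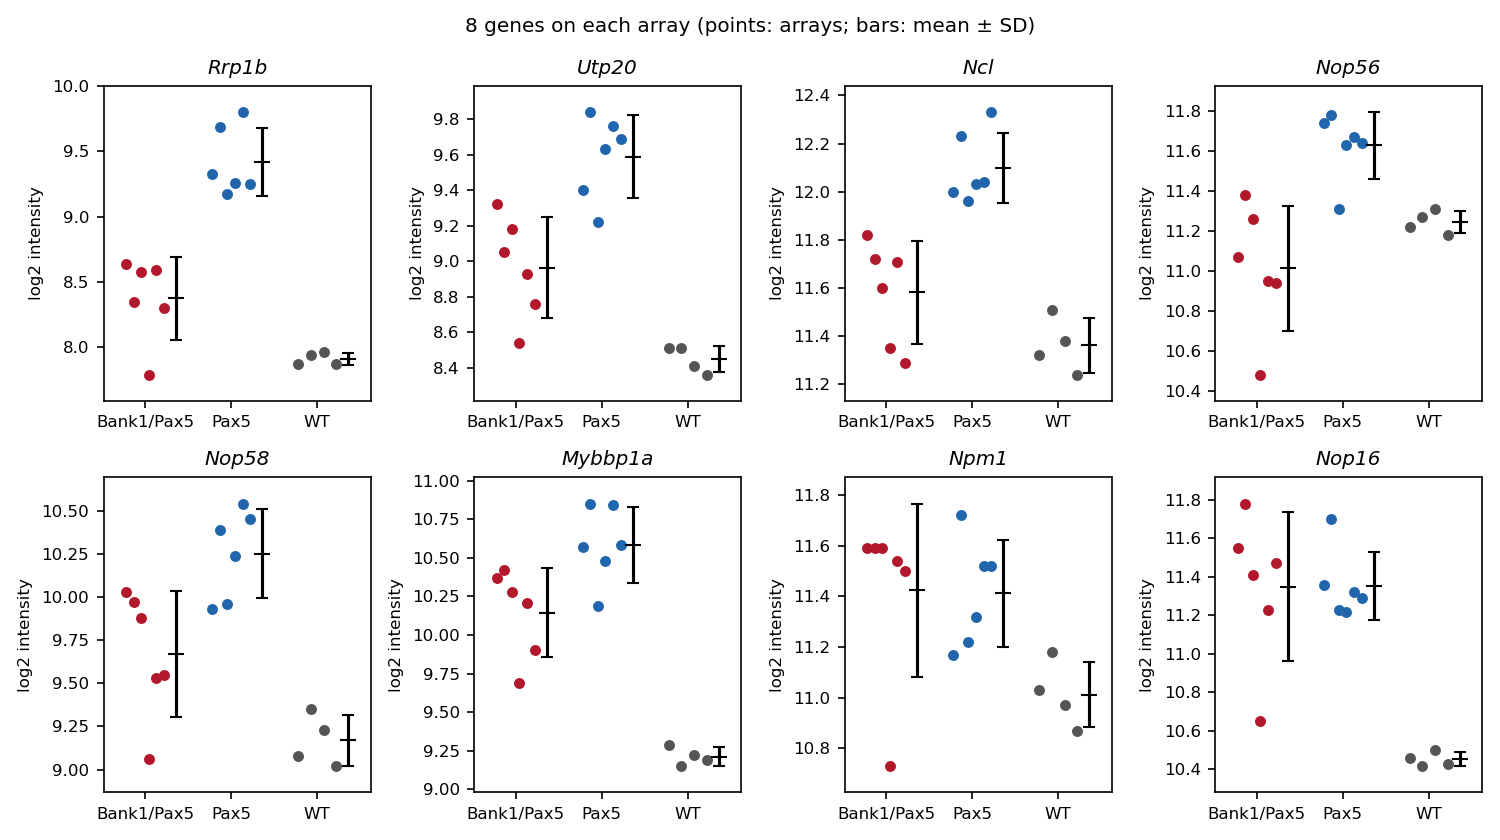
Log2 intensity of 8 genes on each array (points) with group mean ± SD (bars) for Bank1/Pax5 leukemia, Pax5 leukemia and WT. Rrp1b and Ncl in Bank1/Pax5 leukemia lie wholly below Pax5 leukemia, whereas Npm1 and Nop16 overlap between the leukemias, with means of 11.42 and 11.41 for Npm1.

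In the small subunit processome, the particle that forms on the young transcript, 6 of 8 rose in Pax5 leukemia, 4 rose in Bank1/Pax5 leukemia, and 2 were lower in Bank1/Pax5 leukemia than in Pax5 leukemia. Utp20, a large scaffold protein of the particle, measured between 8.54 and 9.32 in Bank1/Pax5 leukemia (median 8.99) and between 9.22 and 9.84 in Pax5 leukemia (median 9.66), against 8.51, 8.51, 8.41 and 8.36 in WT. Each leukemia array lay above all WT arrays, and the leukemias overlapped slightly. The differences were 0.51 for Bank1/Pax5 leukemia minus WT (SE 0.14, adjusted p = 0.0209), 1.14 for Pax5 leukemia minus WT (SE 0.14, adjusted p = 6.77e-05) and -0.63 between the leukemias (SE 0.13, adjusted p = 0.0119). Rrp9, which belongs to the U3 snoRNP within the processome, was higher in Pax5 leukemia than in WT (0.98, SE 0.15, adjusted p = 0.000323) and lower in Bank1/Pax5 leukemia than in Pax5 leukemia (-0.60, SE 0.13, adjusted p = 0.0176).

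Wdr43, a processome protein linked to transcription of ribosomal DNA, measured between 10.12 and 10.70 in Bank1/Pax5 leukemia (median 10.57) and between 10.47 and 11.00 in Pax5 leukemia (median 10.85), against 9.84, 10.10, 9.87 and 9.88 in WT. It rose in both, by 0.56 in Bank1/Pax5 leukemia (SE 0.12, adjusted p = 0.00525) and by 0.89 in Pax5 leukemia (SE 0.12, adjusted p = 0.000161). Nop14, another processome protein, measured between 8.43 and 8.87 in Bank1/Pax5 leukemia (median 8.60) and between 8.50 and 9.10 in Pax5 leukemia (median 8.93), against 8.09, 8.20, 8.22 and 8.04 in WT. Its leukemia arrays lay wholly above WT, with differences of 0.50 for Bank1/Pax5 (SE 0.11, adjusted p = 0.00651) and 0.76 for Pax5 (SE 0.11, adjusted p = 0.000289). Wdr75 rose in both leukemias, by 0.46 and 0.79 in Bank1/Pax5 and Pax5 leukemia. Heatr1 rose in Pax5 leukemia by 0.53, although its lowest Pax5 array (9.59) lay inside the WT range (9.47 to 9.63). Wdr3 passed in neither, with -0.02 for Bank1/Pax5 leukemia minus WT and 0.10 for Pax5 leukemia minus WT (SE 0.10 each), and Utp15 gave -0.05 and 0.34 for the same differences (SE 0.13 each).

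Late factors of the small subunit, which act on the precursor after it leaves the processome, rose in Pax5 leukemia for 3 of 4 genes and in Bank1/Pax5 leukemia for 2. Tsr1, a late assembly factor related to GTPases, measured between 8.69 and 9.08 in Bank1/Pax5 leukemia (median 8.89) and between 8.64 and 9.53 in Pax5 leukemia (median 9.27), against 8.06, 8.07, 8.19 and 7.76 in WT. All leukemia arrays lay above WT, by 0.88 on average in Bank1/Pax5 leukemia (1.84-fold, SE 0.15, adjusted p = 0.000767) and by 1.18 in Pax5 leukemia (2.26-fold, SE 0.15, adjusted p = 6.7e-05). Rrp12, an export factor, rose by 0.42 in Bank1/Pax5 leukemia and by 0.80 in Pax5 leukemia, with adjusted p of 0.0244 and 0.000311. Nob1, the nuclease that makes the last cut of the small subunit RNA, rose in Pax5 leukemia by 0.66 (adjusted p = 0.00618). Bysl, bystin, passed in neither, with -0.01 for Bank1/Pax5 leukemia minus WT and 0.39 for Pax5 leukemia minus WT (SE 0.18 each). Between the leukemias all 4 differences were negative, from -0.39 to -0.30; none passed the test in limma, and all 4 had an unadjusted p under 0.05.

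The PeBoW complex of Pes1, Bop1 and Wdr12 processes the large subunit precursor. Of its 3 genes 2 rose in Pax5 leukemia and 1 in Bank1/Pax5 leukemia. Wdr12 measured between 8.90 and 9.73 in Bank1/Pax5 leukemia (median 9.46) and between 9.39 and 10.01 in Pax5 leukemia (median 9.77), against 8.53, 8.88, 8.74 and 8.41 in WT. The leukemia arrays lay above WT, with differences of 0.76 for Bank1/Pax5 (SE 0.17, adjusted p = 0.00558) and 1.11 for Pax5 (SE 0.17, adjusted p = 0.000335). Pes1 rose in Pax5 leukemia by 0.57 (SE 0.14, adjusted p = 0.00856), against 0.16 in Bank1/Pax5 leukemia (adjusted p = 0.436). Bop1 passed in neither, with -0.11 for Bank1/Pax5 leukemia minus WT and 0.44 for Pax5 leukemia minus WT (SE 0.19 each). The difference between genes of the complex was not tested.

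Of the 10 other factors of the large subunit, 4 rose in Bank1/Pax5 leukemia, 9 rose in Pax5 leukemia, and 3 were lower in Bank1/Pax5 leukemia than in Pax5 leukemia. Rrp1b, a nucleolar protein of large subunit assembly, measured between 7.79 and 8.64 in Bank1/Pax5 leukemia (median 8.46) and between 9.17 and 9.80 in Pax5 leukemia (median 9.29), against 7.87, 7.94, 7.96 and 7.87 in WT. Every Pax5 array lay above every other array, and 1 Bank1/Pax5 array lay below all WT arrays. Rrp1b had the largest difference of the group in both comparisons with Pax5 leukemia, at 1.51 for Pax5 leukemia minus WT (2.84-fold, SE 0.16, adjusted p = 1.55e-05) and -1.04 for Bank1/Pax5 minus Pax5 leukemia (0.486 of the Pax5 leukemia level, SE 0.14, adjusted p = 0.00129). Between Bank1/Pax5 leukemia and WT it was 0.47 (SE 0.16, adjusted p = 0.0515).

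Gnl3, nucleostemin, a GTP-binding protein of the nucleolus first described in stem cells, measured between 9.50 and 10.20 in Bank1/Pax5 leukemia (median 10.05) and between 9.98 and 10.73 in Pax5 leukemia (median 10.51), against 9.02, 9.30, 9.24 and 9.0 in WT. All leukemia arrays lay above WT, by 0.82 for Bank1/Pax5 (SE 0.15, adjusted p = 0.00126) and by 1.32 for Pax5 (SE 0.15, adjusted p = 2.56e-05), and the leukemias differed by -0.50 (SE 0.13, adjusted p = 0.0366). Nop16 measured between 10.65 and 11.78 in Bank1/Pax5 leukemia (median 11.44) and between 11.22 and 11.70 in Pax5 leukemia (median 11.31), against 10.46, 10.42, 10.50 and 10.43 in WT. All leukemia arrays lay above WT. The difference to WT was 0.89 for Bank1/Pax5 (SE 0.16, adjusted p = 0.00148) and 0.90 for Pax5 leukemia (SE 0.16, adjusted p = 0.00126), with -0.01 between the leukemias (SE 0.15, adjusted p = 0.984). Nle1, which acts with the ATPase Mdn1 on the large subunit precursor, measured between 7.60 and 8.19 in Bank1/Pax5 leukemia (median 7.77) and between 7.84 and 8.33 in Pax5 leukemia (median 8.18), against 7.46, 7.20, 7.29 and 7.46 in WT. Its difference to WT was 0.46 in Bank1/Pax5 leukemia (SE 0.11, adjusted p = 0.00785) and 0.80 in Pax5 leukemia (SE 0.11, adjusted p = 0.000127), and between the leukemias it was -0.34 (SE 0.10, adjusted p = 0.0502).

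Nip7 rose by 0.88 in Bank1/Pax5 leukemia and by 0.83 in Pax5 leukemia. Nop2, a methyltransferase of ribosomal RNA, and Mrto4, Noc3l and Rrs1, assembly factors of the large subunit, rose in Pax5 leukemia, by 0.66, 1.02, 0.60 and 0.79, and passed the test against WT in Bank1/Pax5 leukemia for none of the 4. Rrs1 was also lower in Bank1/Pax5 leukemia than in Pax5 leukemia (-0.50, SE 0.14, adjusted p = 0.0486), but its means of 6.26 in Bank1/Pax5 leukemia and 6.77 in Pax5 leukemia, against 5.97 in WT, all lay under 7.01, the median of named probe sets, where the size of a difference is not well bounded. Ebna1bp2 passed in no comparison, with 0.45 for Bank1/Pax5 leukemia minus WT and 0.38 for Pax5 leukemia minus WT (SE 0.21 each).

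In full separation of the arrays, 11 genes of the group lay wholly above WT in Bank1/Pax5 leukemia (28.9%, against 7.35% of all genes), and 27 did so in Pax5 leukemia (71.1%, against 11.6%). Nop56 lay wholly above WT in Pax5 leukemia without passing the test, and Heatr1 passed the test with overlapping arrays. Between the leukemias, Rrp1b and Ncl lay wholly lower in Bank1/Pax5 leukemia, 2 of 38 genes (5.26%, against 1.87% of all genes).

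By gene, 13 of the 38 were called higher in both comparisons with WT (Gnl3, Mybbp1a, Nhp2, Nip7, Nle1, Nop14, Nop16, Rrp12, Tsr1, Utp20, Wdr12, Wdr43 and Wdr75), and 14 passed in Pax5 leukemia while missing the threshold in Bank1/Pax5 leukemia. Missing the threshold does not show a difference between the leukemias, and for that the direct comparison counts. The 9 genes lower in Bank1/Pax5 leukemia than in Pax5 leukemia were Rrp1b, Ncl, Nop56, Utp20, Rrp9, Ddx21, Gnl3, Nop58 and Rrs1, and 8 of them, all but Nop56, were also called higher in Pax5 leukemia than in WT. The remaining genes gave differences between the leukemias from -0.59 (Polr1b, SE 0.19, adjusted p = 0.0831) to 0.10 (Nhp2, SE 0.20). Among all 38 genes, 25 had an unadjusted p under 0.05 in limma with the lower level in Bank1/Pax5 leukemia. Over all 19938 genes, 4518 had an unadjusted p under 0.05 in either direction.

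The comparison of the leukemias depended on the fit. With the 12 leukemia arrays alone, 4 genes were called lower in Bank1/Pax5 leukemia (Ncl, Nop56, Rrp1b and Utp20), against 1.80% of all genes. With the mean level of non-B cell markers as a covariate 2 were called (Ncl and Rrp1b), against 1.45% of all genes, and the median difference over the 38 genes was -0.22. These markers are all marker lists but those of B cell precursors and dividing cells. They include plasma cells, which belong to the B lineage, so the name non-B is loose. Rrp1b and Ncl passed in each of the 28 settings that kept the same threshold, with adjusted p between 0.000821 and 0.0146 for Rrp1b and between 0.00643 and 0.0457 for Ncl. Nop56 and Utp20 passed in 27 of the 28, with adjusted p up to 0.0786 and 0.087. Rrp9 passed in 25, Ddx21 in 18, Gnl3 in 11, Nop58 in 10 and Rrs1 in 5 of 27.

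The median of the 38 genes above their WT mean was taken as their shared level on an array. The Bank1/Pax5 arrays gave 0.49, 0.64, 0.53, -0.05, 0.34 and 0.39 (arrays 1 to 6), and the Pax5 arrays 0.74, 1.04, 0.37, 0.62, 0.79 and 0.78, against -0.07 to 0.07 in WT. All leukemia arrays but array 4 of Bank1/Pax5 leukemia lay above WT, and the leukemias overlapped. The same median over all genes stayed between -0.08 and 0.02 on every array. Array 4 of Bank1/Pax5 leukemia was the lowest of the 12 leukemia arrays for 33 of the 38 genes, against 16.2% of all genes, and 11 of its 38 values exceeded the highest WT array. Array 2 of Pax5 leukemia was the highest for 19 genes, against 9.31% of all genes, and array 5 for 12, against 7.16%.

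By role, array 4 of Bank1/Pax5 leukemia was lowest for H/ACA core proteins, whose median stood at -0.41 relative to the WT mean, while that of the processome stood at 0.06. Without this array 21 genes in place of 13 rose in Bank1/Pax5 leukemia against WT, and 6 in place of 9 were lower than in Pax5 leukemia. Over all 19938 genes, 1546 in place of 1356 rose and 870 in place of 996 were lower. Without array 3 of Pax5 leukemia, the lowest of its group, 22 of the 38 genes were lower in Bank1/Pax5 leukemia than in Pax5 leukemia, beside 1166 of all genes. Without array 2 of Bank1/Pax5 leukemia 15 of the 38 were lower, and leaving out array 5 of Bank1/Pax5 leukemia gave 5, as did leaving out array 2, 5 or 6 among the Pax5 arrays. These fits called 1279, 548, 707, 634 and 819 of all genes lower, in this order. The count of genes lower in Bank1/Pax5 leukemia ranged from 5 to 22 with 1 array left out, and Rrp1b, Ncl, Nop56, Utp20 and Rrp9 were among the called genes in every one of these fits.

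**Figure D4:**
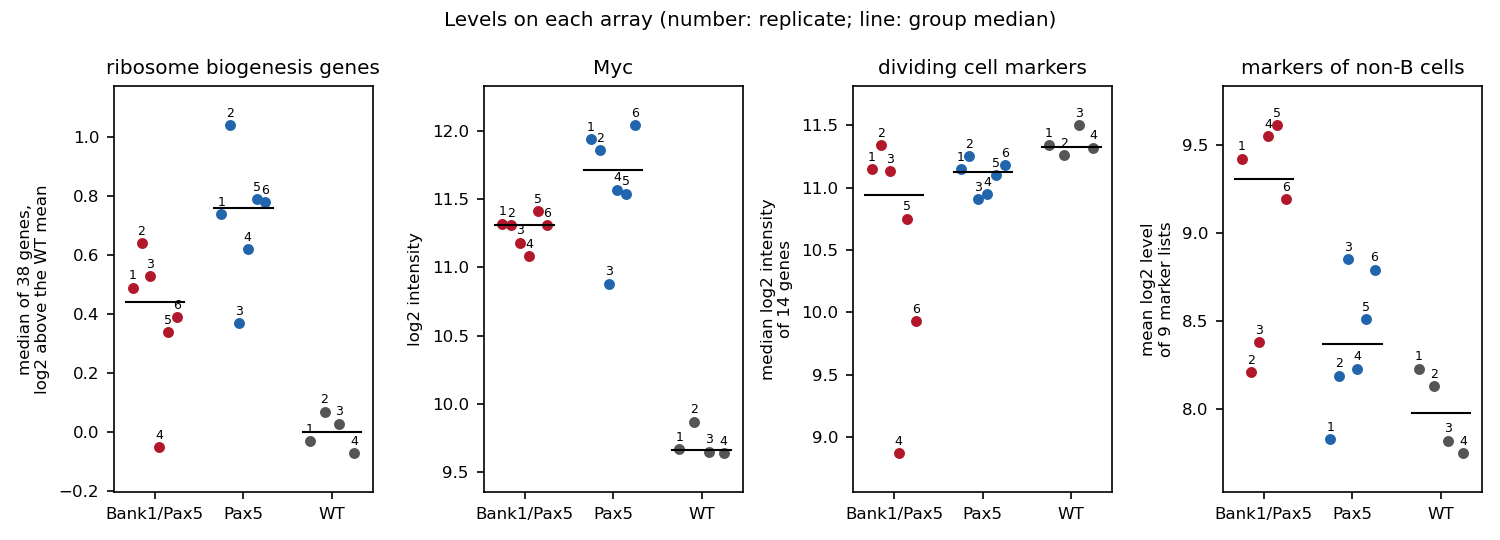
Levels on each array, numbered by replicate, with group medians as lines: the median of the 38 genes above the WT mean, Myc, the median of 14 dividing cell markers and the mean of the non-B marker lists, all in log2. Array 4 of Bank1/Pax5 leukemia is lowest for the 38 genes and for dividing cell markers (-0.05 and 8.87), while its Myc level of 11.08 lies above all WT arrays.

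Myc measured between 11.08 and 11.41 in Bank1/Pax5 leukemia (median 11.31) and between 10.88 and 12.04 in Pax5 leukemia (median 11.71), against 9.67, 9.87, 9.65 and 9.64 in WT. All leukemia arrays lay above WT, by 1.56 for Bank1/Pax5 (2.95-fold, SE 0.17, adjusted p = 2.41e-05) and by 1.93 for Pax5 (3.82-fold, SE 0.17, adjusted p = 3.77e-06). Between the leukemias the difference was -0.37 (SE 0.15, adjusted p = 0.162). Among the Pax5 arrays, array 3 had the lowest Myc level (10.88) and the lowest shared level (0.37). Array 6 had the highest Myc level (12.04) with a shared level of 0.78, and array 2 the highest shared level (1.04) with a Myc level of 11.86. Among the Bank1/Pax5 arrays, array 4 was lowest in both (11.08 and -0.05). Their highest Myc level (11.41, array 5) came with a shared level of 0.34, and their highest shared level (0.64, array 2) with a Myc level of 11.31. The relation of Myc to the shared level was not tested.

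Markers of other cells moved with these groups. Monocyte and macrophage markers were called higher than in WT for 8 of 10 genes in Bank1/Pax5 leukemia and 6 in Pax5 leukemia, with median levels between 8.63 and 11.71 in Bank1/Pax5 leukemia and between 8.10 and 9.94 in Pax5 leukemia, against 6.31 to 6.60 in WT. Megakaryocyte markers were higher for 6 and 5 of 6 genes in the same order, and stromal and endothelial markers for 6 and 7 of 10. NK cell markers went the other way and were called lower than in WT for 5 of 8 genes in Bank1/Pax5 leukemia and 6 in Pax5 leukemia, with median differences of -1.33 and -2.08. Between the leukemias, all 8 NK cell, 6 megakaryocyte, 10 neutrophil, 7 erythroid and 10 monocyte and macrophage markers stood higher on average in Bank1/Pax5 leukemia, with median differences from 0.67 to 0.97. Of these, limma called 2 NK cell markers and 1 monocyte and macrophage marker and none of the others, where 4 erythroid, 1 megakaryocyte and 0 neutrophil markers had an unadjusted p under 0.05. The T cell, stromal and endothelial, plasma cell and plasmacytoid dendritic cell lists were mixed between the leukemias, and limma called 1 T cell marker higher in Bank1/Pax5 leukemia. On average 6 of 8 T cell, 6 of 10 stromal and endothelial, 5 of 6 plasma cell and 4 of 5 plasmacytoid dendritic cell markers stood higher there. The B cell precursor markers had a median level between 7.58 and 11.76 in Bank1/Pax5 leukemia and between 7.36 and 12.28 in Pax5 leukemia, against 12.52 to 12.63 in WT, so that the labelled cell type was weakly marked on some leukemia arrays. Array 5 of Pax5 leukemia had a B precursor level of 7.71 beside a shared ribosome biogenesis level of 0.79, and array 3 had 7.36 beside 0.37. Array 4 of Bank1/Pax5 leukemia had 7.58 beside -0.05, and it also had the highest monocyte and macrophage (11.71), erythroid (11.49) and megakaryocyte (11.76) levels of the 16 arrays. Dividing cell markers had a median level between 8.87 and 11.34 in Bank1/Pax5 leukemia and between 10.91 and 11.25 in Pax5 leukemia, against 11.26 to 11.50 in WT, and 2 of 14 were called lower in Bank1/Pax5 leukemia than in WT (12.8% of all genes were). All 14 stood lower on average in Bank1/Pax5 leukemia than in WT, with a median difference of -0.86, and 8 had an unadjusted p under 0.05 in limma. Between the leukemias all 14 stood lower on average in Bank1/Pax5 leukemia, with a median difference of -0.59. Of these 14, limma called 0, and 4 had an unadjusted p under 0.05. For Pax5 leukemia minus WT the dividing cell markers had a median difference of -0.22. Of the 14, limma called 0, and 0 had an unadjusted p under 0.05. The highest Pax5 array (11.25) and the lowest WT array (11.26) lay close together. How the share of dividing cells bears on the ribosome biogenesis genes was not tested. Without arrays 4 and 6 of Bank1/Pax5 leukemia, which had the lowest dividing cell levels, 23 ribosome biogenesis genes rose in Bank1/Pax5 leukemia against WT and 5 were lower than in Pax5 leukemia. Over all 19938 genes, 1473 rose and 675 were lower. With non-B markers as a covariate 14 ribosome biogenesis genes rose in Bank1/Pax5 leukemia and 32 in Pax5 leukemia, beside 673 and 2091 of all genes. Beyond these fits the part of other cells in the results was not tested.

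The sex of the mice is not stated, and it was not balanced by the level of Y-linked genes (the mean of Ddx3y, Eif2s3y, Kdm5d and Uty). That mean was high on 4 of 6 Bank1/Pax5 arrays (8.46 to 9.06) and on 5 of 6 Pax5 arrays (8.89 to 9.13), and low on all 4 WT arrays (4.83 to 4.85). On the leukemia arrays with a low Y-linked level, the shared level of the 38 genes was 0.53 and 0.34 in Bank1/Pax5 leukemia (arrays 3 and 5) and 1.04 in Pax5 leukemia (array 2), against -0.07 to 0.07 in WT. With the Y-linked level as a covariate, 17 genes rose in Bank1/Pax5 leukemia against WT, 28 rose in Pax5 leukemia against WT, and 11 were lower in Bank1/Pax5 leukemia than in Pax5 leukemia. Over all 19938 genes these counts were 984, 1392 and 984, in the same order.

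As a check of the labels, Bank1 itself averaged 8.63 ± 0.78 in Bank1/Pax5 leukemia and 10.18 ± 0.79 in Pax5 leukemia (SD, n = 6 each), against 9.17 ± 0.12 in WT (n = 4), with -1.54 between the leukemias (SE 0.38, adjusted p = 0.0265). Against WT Bank1 passed the test in neither leukemia. It gave -0.53 for Bank1/Pax5 leukemia (SE 0.42, adjusted p = 0.404) and 1.01 for Pax5 leukemia (SE 0.42, adjusted p = 0.0964). The loss of 1 Bank1 allele was thus not shown by the comparison with WT. Pax5 averaged 9.78 ± 1.58 in Bank1/Pax5 leukemia and 10.98 ± 1.75 in Pax5 leukemia, against 11.96 ± 0.12 in WT, and no difference passed the test. The median of an array was 6.58 to 6.71, and the number of arrays limits the precision. Arrays of a group correlated at 0.944 to 0.987 among Bank1/Pax5 arrays, at 0.968 to 0.982 in Pax5 leukemia, and at 0.992 to 0.995 in WT.

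Of 132 further genes listed for the pathway, 124 were measured. In Bank1/Pax5 leukemia 13 rose against WT (10.5%, against 6.80% of all genes) and 10 fell (8.06%, against 12.8%), with a median difference of 0.05. In Pax5 leukemia 43 rose against WT (34.7%, against 9.53% of all genes) and 5 fell (4.03%, against 13.8%), with a median of 0.28. Between the leukemias 24 were lower in Bank1/Pax5 leukemia (19.4%, against 5.00% of all genes) and 1 was higher (0.806%, against 1.71%), with a median of -0.25. The RNA polymerase I machinery had 5 of 11 genes higher in Pax5 leukemia. Taf1d, of the promoter selectivity factor, averaged 12.27 in Bank1/Pax5 leukemia and 12.53 in Pax5 leukemia, against 11.68 in WT, and rose in both (0.59, adjusted p = 0.000675, and 0.85, adjusted p = 3.06e-05). The polymerase subunits Polr1d and Polr1a rose in Pax5 leukemia, by 0.81 and 0.92, and Polr1d was lower in Bank1/Pax5 leukemia than in Pax5 leukemia (-0.56, adjusted p = 0.00602). Taf1d had 9 probe sets, and Polr1d and the genes Tsr3, Ddx54 and Mphosph6 named below had 2 each. For these genes only the probe set with the highest mean is described, so agreement between their probe sets is not shown. Ubtf, the upstream binding factor of the ribosomal DNA, went the other way: it averaged 10.39 in Bank1/Pax5 leukemia and 10.80 in Pax5 leukemia, against 10.86 in WT, and was lower in Bank1/Pax5 leukemia than in WT (-0.46, adjusted p = 0.00433) and than in Pax5 leukemia (-0.40, adjusted p = 0.0171).

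Among other small subunit factors, 13 of 43 rose and 2 fell in Pax5 leukemia, and 5 rose and 3 fell in Bank1/Pax5 leukemia. Of all genes, 9.53% rose and 13.8% fell in Pax5 leukemia, and 6.80% rose and 12.8% fell in Bank1/Pax5 leukemia. Rcl1 rose in both leukemias, by 0.61 in Bank1/Pax5 and 1.28 in Pax5, as did Aatf, by 0.64 and 0.71, and Pno1, by 0.98 and 1.10. The RNA acetyltransferase Nat10 rose in Pax5 leukemia by 1.08, against 0.34 in Bank1/Pax5 leukemia (adjusted p = 0.112). Bms1, a GTPase of the processome, averaged 8.78 in Bank1/Pax5 leukemia and 9.18 in Pax5 leukemia, against 9.15 in WT, and was lower in Bank1/Pax5 leukemia than in WT (-0.37, adjusted p = 0.00248) and than in Pax5 leukemia (-0.41, adjusted p = 0.00354). Between the leukemias 11 of 43 were lower in Bank1/Pax5 leukemia, Pdcd11 (-0.54) and Nat10 (-0.74) among them, and Tsr3, named because it is the single exception, was higher (0.61, SE 0.13, adjusted p = 0.0166).

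Of 45 other large subunit factors, 17 rose and 3 fell in Pax5 leukemia, 4 rose and 5 fell in Bank1/Pax5 leukemia, and 9 were lower in Bank1/Pax5 leukemia than in Pax5 leukemia. The counts of this list against WT in Bank1/Pax5 leukemia lay near the shares of all genes, 6.80% higher and 12.8% lower. In Pax5 leukemia the shares of all genes were 9.53% and 13.8%, and between the leukemias 5.00% were lower. Mdn1, midasin, a giant ATPase that pulls factors off the large subunit precursor, averaged 9.04 in Bank1/Pax5 leukemia and 9.64 in Pax5 leukemia, against 8.32 in WT. It rose in both (0.72, adjusted p = 0.000263, and 1.32, adjusted p = 1.66e-06) and was lower in Bank1/Pax5 leukemia than in Pax5 leukemia (-0.60, adjusted p = 0.00299). Sdad1 rose in both, by 0.55 in Bank1/Pax5 and 1.04 in Pax5 leukemia. Zfp622, a late factor of the large subunit, fell in both (-0.51 in Bank1/Pax5 and -0.78 in Pax5 leukemia), and so did the helicase Ddx54 (-0.81 and -0.56). The RNA-binding protein Rbm28 fell in Bank1/Pax5 leukemia against WT (-0.50), where Pax5 leukemia gave -0.10 (adjusted p = 0.429), and Rbm28 and Ddx31 were lower in Bank1/Pax5 leukemia than in Pax5 leukemia, with -0.40 and -0.55.

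Partners of the snoRNPs gave 3 of 11 higher in Pax5 leukemia, namely Naf1 and Shq1, assembly factors of H/ACA particles, by 0.84 and 0.44, and Nop10, an H/ACA core protein, by 0.61 (adjusted p = 0.0455). In Bank1/Pax5 leukemia 1 of the 11 rose, Znhit6, an assembly factor of box C/D particles, by 0.57 (adjusted p = 0.044). That count lay near the share of all genes that rose in Bank1/Pax5 leukemia, 6.80%, where 9.53% of all genes rose in Pax5 leukemia. The RNA exosome and trimming enzymes gave 5 of 14 higher in Pax5 leukemia, with Exosc7, Exosc5 and Dis3 at 0.74, 0.73 and 0.45, and 2 of 14 higher in Bank1/Pax5 leukemia, Mphosph6 and Exosc7 at 0.49 and 0.39. Exosc10 fell in Bank1/Pax5 leukemia against WT (-0.26, adjusted p = 0.0356), and Xrn2 and Exosc7 were lower in Bank1/Pax5 leukemia than in Pax5 leukemia, with -0.46 and -0.36.

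Several hosts in the group carry snoRNA genes within their span, and 4 such snoRNAs had a probe set of their own. Snord53, inside Wdr43, averaged 10.69 ± 0.30 in Bank1/Pax5 leukemia and 12.09 ± 0.24 in Pax5 leukemia, against 10.62 ± 0.09 in WT, and was lower in Bank1/Pax5 leukemia than in Pax5 leukemia (-1.40, SE 0.13, adjusted p = 0.000292), where Wdr43 itself gave -0.33. Snora75 and Snord82 both lie inside Ncl and gave -1.18 and 0.05 between the leukemias, beside -0.51 for Ncl, and Snord57, inside Nop56, gave -0.18 beside -0.62 for Nop56.

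**Figure D5:**
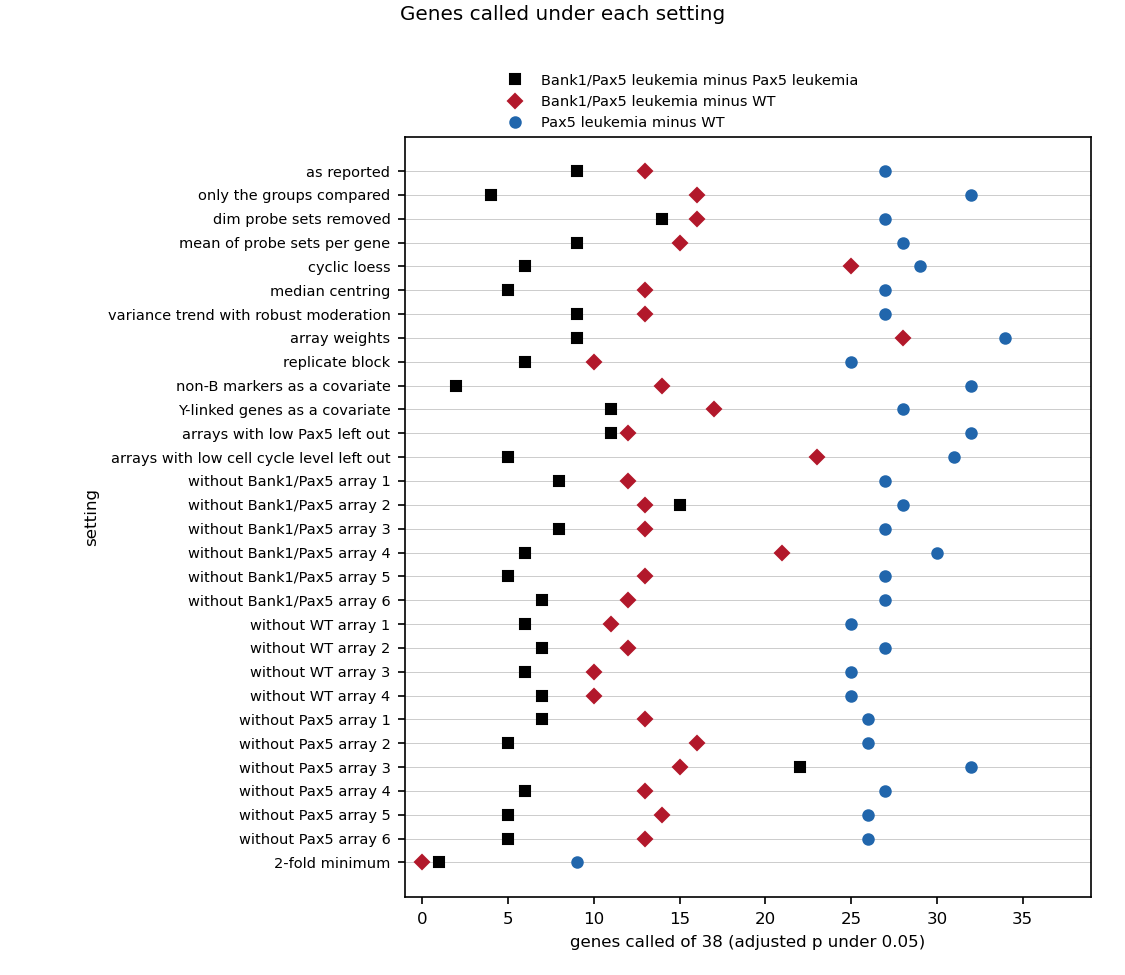
Number of the 38 genes called at adjusted p under 0.05 in each comparison under each setting (rows), with squares for Bank1/Pax5 minus Pax5 leukemia, diamonds for Bank1/Pax5 leukemia minus WT and circles for Pax5 leukemia minus WT. The circles stay between 25 and 34 except at the 2-fold minimum, where 9 remain past it, while the squares run from 1 to 22.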

How the data were processed

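RNA from 16 bone marrow samples was biotin labelled and hybridised to oligonucleotide arrays. Per the submitters' processing notes, the authors used RMA through the oligo package (versions not given in the sources used here), and the deposited values are log2 intensities per probe set, which were used without further scaling. Of 35556 probe sets, 21789 named 1 gene, 1621 several and 12146 none, and 91 had no current gene record. For 999 genes with several probe sets the one with the highest mean was kept.

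All 16 arrays entered a linear model with 1 mean per group, fitted by limma 3.58.1 (lmFit and eBayes) in R 4.3.3, with Benjamini-Hochberg adjustment over 19938 genes. SE is the moderated standard error. The fit assumes 1 spread per gene, yet the median gene SD was 0.180 over the Bank1/Pax5 arrays and 0.159 over the Pax5 arrays, against 0.0866 over the WT arrays. It was tested on simulated data. There the false calls stayed near the threshold with 1 spread per gene, and when each group kept its own spread they exceeded it in both comparisons with Bank1/Pax5 leukemia, by far the most between the leukemias. No batch is given in the labels. The number of arrays limits the precision.

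The genes and lists were chosen with earlier results of these data known. Described on every array were Ncl, Npm1, Nop56, Nop58, Fbl, Dkc1 and Polr1b, the 8 genes with the smallest p in each comparison with WT and the 4 with the smallest p between the leukemias, and of each list of further pathway genes up to 3 called genes with the smallest p per comparison. The 29 alternatives per comparison covered the arrays fitted, dim probe sets, probe set choice, scaling, moderation, array weights, the replicate number, covariates and a 2-fold minimum. Promoter sequences are RefSeq's. The array's own genome build is not stated.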

Additional observations from a re-analysis of the deposited data

Results flagged for a closer look

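The 38 genes and their shared level were each checked in the 3 groups of 6, 6 and 4 arrays, 117 checks in all. The highest or lowest array stood apart from the others in 9, where chance gives about 1 in 20. Array 4 of Bank1/Pax5 leukemia was low for Npm1 (10.73, others 11.50 to 11.59), Nolc1 (8.87, others 9.90 to 10.37), Polr1b (8.47, others 9.44 to 9.76) and Pa2g4 (10.89, others 11.55 to 11.86). Array 3 of Pax5 leukemia was low for Nop56 (11.31, others 11.63 to 11.78), Pa2g4 (11.35, others 11.69 to 11.88) and Nle1 (7.84, others 8.16 to 8.33). Array 2 of Pax5 leukemia was high for Nop16 (11.70, others 11.22 to 11.36), and array 2 of WT for Wdr43 (10.10, others 9.84 to 9.88).

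The direct test between the leukemias found Bank1/Pax5 lower than Pax5 leukemia for Rrp1b (-1.04), Utp20 (-0.63), Nop56 (-0.62), Rrp9 (-0.60), Nop58 (-0.58), Ncl (-0.51), Rrs1 (-0.50), Gnl3 (-0.50) and Ddx21 (-0.36).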

How the results depend on the processing

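The 27 calls for Pax5 leukemia minus WT ranged from 25 to 32 with 1 array left out and came to 9 at a 2-fold minimum. Of all 19938 genes, 1901 were called higher in the fit as reported, 1322 to 2241 with 1 array left out and 560 at a 2-fold minimum. The 13 for Bank1/Pax5 leukemia minus WT ranged from 10 to 21 with 1 array left out (21 without array 4 of Bank1/Pax5 leukemia). They were 25 with cyclic loess, 28 with array weights, 23 without the arrays of low cell cycle level and 0 at a 2-fold minimum. No gene could pass that minimum, as the largest difference was 0.94. Of all 19938 genes, 1356 were called higher in the fit as reported, and 836 to 1628 with 1 array left out. Cyclic loess called 2079 of them higher, array weights 2575, and the fit without the arrays of low cell cycle level 1473. At the 2-fold minimum 505 remained. At an unadjusted p under 0.05 in limma 24 genes of the group were higher, and 6560 of all genes differed in either direction. The 9 for Bank1/Pax5 minus Pax5 leukemia ranged from 5 to 22 with 1 array left out, and were 4 with only these groups, 14 with dim probe sets removed, 5 with median centring, 2 with non-B markers as a covariate, 5 without the arrays of low cell cycle level and 1 at a 2-fold minimum. Of all 19938 genes, 996 were called lower in the fit as reported, and 548 to 1279 with 1 array left out. Only these groups gave 359, median centring 873 and non-B markers as a covariate 290. Without the arrays of low cell cycle level there were 675, at a 2-fold minimum 42, and with dim probe sets removed 1061 of 10445. The cause of these changes was not tested. Same-numbered arrays did not deviate together throughout (correlations from -0.38 to 0.12 between the leukemias, -0.13 to 0.32 between Bank1/Pax5 leukemia and WT, and -0.28 to 0.20 between Pax5 leukemia and WT), so the numbers were not taken to pair the samples. With the replicate number as a block, the counts were 25 for Pax5 leukemia minus WT, 10 for Bank1/Pax5 leukemia minus WT and 6 between the leukemias. Over all 19938 genes, 1397 and 842 were called higher than in WT, in the same order. Between the leukemias, 534 of all genes were called lower in Bank1/Pax5 leukemia.

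Of 493 values of named genes in each comparison, 1 changed sign for Bank1/Pax5 leukemia minus WT, 26 between the leukemias and none for Pax5 leukemia minus WT, all of them values that passed no test. Nop56 in Bank1/Pax5 leukemia minus WT was 0.15 with the non-B covariate. Between the leukemias, Npm1 was -0.00201 with median centring, -0.05 with Y-linked genes as a covariate, -0.10 without the arrays of low Pax5 level, and between -0.04 and 0.15 in the 16 fits without 1 array, negative in 8. Fbl was -0.09 with the mean of its probe sets, -0.02 without the arrays of low Pax5 level, and between -0.04 and 0.11 without 1 array, negative in 4. Dkc1 was 0.05 with the non-B covariate and 0.03 without the arrays of low cell cycle level. Nop16 was 0.09 with cyclic loess, 0.08 with array weights, 0.20 with the non-B covariate, 0.14 without the arrays of low cell cycle level, and between -0.09 and 0.13 without 1 array, positive in 3.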

Other observations

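The probe set that names Ppan together with a second gene averaged 9.27 ± 0.33 in Bank1/Pax5 leukemia and 9.71 ± 0.32 in Pax5 leukemia, against 9.10 ± 0.03 in WT (SD, n = 6, 6 and 4), and was not tested. A second probe set of Wdr12 averaged 8.26 ± 0.35 in Bank1/Pax5 leukemia and 8.62 ± 0.26 in Pax5 leukemia, against 7.37 ± 0.22 in WT. A second probe set of Mrto4 averaged 8.18 ± 0.47 in Bank1/Pax5 leukemia and 8.55 ± 0.44 in Pax5 leukemia, against 7.41 ± 0.20 in WT. Of 3 probe sets that name Npm1 together with a second gene, the brightest averaged 12.64 ± 0.20 in Bank1/Pax5 leukemia and 12.65 ± 0.10 in Pax5 leukemia, against 12.38 ± 0.12 in WT.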
